A study of Homo sapiens with 24 samples.

Results

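ZNF251 binding in HEK293T cells was described by 20974 ChIP-exo peaks, the intervals in which the MACS peak caller scored the immunoprecipitate over its control above 80. All peaks above that score were taken. They are 20974 of the 31655 intervals in the ZNF251 peak list, and the other 10681 scored between 50 and 80. The 22 peak lists of the series held 31721 peaks above 80 in all, so that 66.1% of them came from the ZNF251 library. The score is −10 times the log10 of the peak's p-value.

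The series mapped the genomic targets of human KRAB zinc finger proteins (KZFPs), 15 of them by ChIP-exo and the others, with an untransduced HEK293T control, by ChIP-seq in 7 libraries. HEK293T is a human embryonic kidney cell line that carries the SV40 large T antigen. Cells were transduced with a lentiviral vector that expresses the HA-tagged protein under a doxycycline-inducible promoter, selected with puromycin (1 µg/ml) for 7 days and induced with doxycycline (1 µg/ml). Chromatin was fixed with 1% formaldehyde for 10 min and precipitated with 15 µg of anti-HA antibody. The peaks therefore show an overexpressed, tagged ZNF251 and not the endogenous protein. Each KZFP had 1 library, so that no value below has a replicate error. Intervals in brackets are exact 95% Clopper-Pearson intervals, which cover counting error only, and Fisher's exact tests compare single libraries and not conditions. The read depth of the libraries is unknown from the peak lists.

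KZFPs are the largest family of human transcription factors. Each carries a KRAB domain, which in most members recruits the corepressor KAP1 (TRIM28), and an array of C2H2 zinc fingers, each of which reads a few neighbouring bases. Many members bind sequences inside transposable elements and take part in their silencing through heterochromatin, while others bind gene promoters.

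Related sequence patterns of different length were found in the peaks. The long motif, GNTAAGTGAAANAAGCCA (18 positions, 16 of them fixed, N for any base), was read from the 2000 highest-scoring peaks of the odd-numbered autosomes. A site was counted with at most 3 mismatches on either strand. A search of the peaks without the long motif returned the word CACTTAGC, which reads GCTAAGTG on the other strand. The shorter core was set to GNTAAGTG, the first 8 positions of the long motif. Its N was thus taken from the long motif, in place of the C that the search returned. The core was counted without mismatch at its fixed letters. An extended core, GNNANNGNGNTAAGTG (10 fixed letters, at most 1 mismatch), adds 3 letters before the core that were common in those same peaks. All shares of peaks with a motif below, unless stated otherwise, are from the even-numbered autosomes and X, which played no part in finding the letters. The following sites of build hg19 show the long motif in capitals with 6 bases on each side, read on the strand of the motif. They are the highest-scoring exact sites for each base at position 12, counted from 1 at the first base of the motif, with ties taken in genome order.
ALG6 intron, chr1:63849603-63849632, minus strand, C at position 12: catgatGTTAAGTGAAACAAGCCAggcaca
PCDH9 intron, chr13:67146606-67146635, minus strand, G at position 12: cattatGTTAAGTGAAAGAAGCCAggccca
JAK1 intron, chr1:65520948-65520977, minus strand, T at position 12: taccatGCTAAGTGAAATAAGCCAgacata
PHF21B intron, chr22:45386422-45386451, plus strand, A at position 12: tattacGCTAAGTGAAAAAAGCCAgtggca
All 4 lay under peaks with a score of 3100, which 86 peaks shared and only 8 exceeded. The next 4 sites show the core in capitals in the highest-scoring peaks that have the core but no long motif.
MAN1A2 intron, chr1:118042908-118042937, plus strand: tcagctactgcGTTAAGTGctgtcatatgg
PLEKHM3 intron, chr2:208793650-208793679, plus strand: tcagacattgcGCTAAGTGaaaaataggaa
Intron of ENSG00000281613 near LAMA4, chr6:112605366-112605395, plus strand: agagaaagggtGCTAAGTGaaaatgctgta
SDK1 intron, chr7:3465911-3465940, plus strand: catggaagggtGCTAAGTGcgtcactgagt
These 4 peaks also scored 3100.

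The long motif was present in 4868 of 10635 held-out peaks, 45.8% (44.8 to 46.7). Windows of equal width 1000 bp away held it in 1.78% of cases, and 0.299% of 35116 RefSeq promoters of 300 bp (GRCh38.p14) held it. Of the 5767 peaks without the long motif, 18% had the core within 100 bp of the midpoint, against 1.84% in windows 1000 bp away. Of the 4731 peaks with neither, 9.47% had the extended core, against 0.909% in the windows. In the promoters the core was found in 2.23% and the extended core in 1.44%. The remaining 4283 peaks, 40.3% of the held-out ones, had none of the 3 patterns.

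The motif lay at the centre of the peaks. Its centre was a median of 26 bp from the peak midpoint over the 9416 peaks of all chromosomes that had it, and 78.8% were within 50 bp, although the median peak was 470 bp wide. Only 1.09% of these peaks held 2 or more sites. In the direction of the motif, the peak midpoint was a median of 5 bp upstream of the motif centre.

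Peak scores fell with the number of mismatches when all chromosomes were taken. The median score was 291 for the 4526 peaks with an exact site, 231 with 1 mismatch, 202 with 2 and 184 with 3. It was 193 for the 2002 peaks with the core only, 168 for the 849 with the extended core only and 144 for the 8707 with none. The quartiles overlapped widely, from 154 to 555 for exact sites and from 102 to 247 for peaks with none. These medians include the high-scoring peaks from which the letters were read, so that part of the fall may come from that choice. For bound sites on the held-out chromosomes the medians were 283 without mismatch, 227 with 1, 195 with 2 and 201 with 3. No fall was seen there from 2 to 3 mismatches.

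The share of peaks with the long motif rose with the score and then dropped in the highest scores. It was 21.1% at scores from 50 to 80, 29.1% above 80 to 100, 45.6% above 150 to 250 and 65.6% above 500 to 1000. It reached 65.8% (60.2 to 71.1) above 1000 to 1500 and was 43.3% (37.0 to 49.9) among the 240 held-out peaks above 1500. The share with none of the patterns moved the other way, from 66.3% at scores of 50 to 80 to 18.4% above 1000 to 1500, and was 40.4% above 1500.

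The same top scores held more peaks at gene starts. A peak was counted at a transcription start site (TSS) with at least 1 bp within 2500 bp of an annotated transcript start. This share lay between 21.5% and 24.1% in every score class from 50 to 1000, was 28.2% (24.8 to 31.8) above 1000 to 1500 and 39.2% (34.9 to 43.6) above 1500. CpG-rich peaks, with at least 50% GC and an observed-to-expected CpG ratio of at least 0.6 in the central 300 bp, made up 6.73% to 8.46% of the classes from 50 to 1500 and 17.2% (14 to 20.8) of the 495 peaks above 1500. Peaks also widened with the score (Spearman's rho = 0.70 across the 20974 peaks of this library, which are not independent replicates), from a median of 355 bp just above 80 to 746 bp above 1500.

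**Figure D1:**
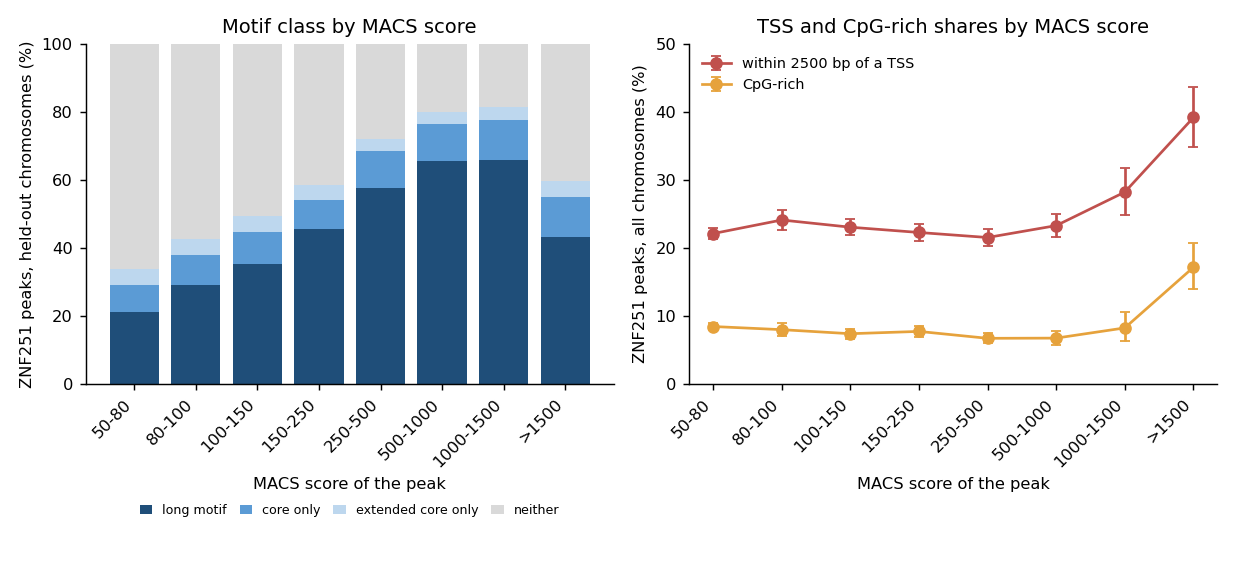
Left, percent of ZNF251 peaks on the held-out chromosomes in each motif class (stacked bars), by MACS score. Right, percent of ZNF251 peaks on all chromosomes within 2500 bp of a TSS and CpG-rich, by MACS score, with 95% exact intervals. The long motif was most frequent at 1000-1500 (65.8%) and fell to 43.3% above 1500, where the TSS share was highest (39.2%).

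The 2 lowest peaks kept scored 80.02, one at chr11:74464236-74464513 and one at chrX:70050869-70051251, and both lay in introns of protein-coding genes. The 2 highest peaks left out scored 79.99, one at chr16:13365758-13365967 in an intron of a gene that is not protein-coding and one at chr6:108778042-108778251 in an intron of a protein-coding gene, nearest to AFG1L. None of the 4 was CpG-rich.

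The genome offered many more copies of the motif than were bound. Over the held-out chromosomes, 4387 exact sites were found and 2364 of them, 53.9% (52.4 to 55.4), lay under a peak above 80. A further 346 lay under an interval scored 50 to 80, which brought the share to 61.8%. With 1 mismatch the share was 17.3% of 8996 sites, with 2 it was 5.00% of 11851, with 3 it was 1.30% of 31643 and with 4 it was 0.498% of 215163. Each further mismatch up to 3 lowered the share by more than its intervals.

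Mismatches at different positions of the motif went with very different shares of bound sites. Among held-out sites with a single mismatch, 3 of 379 with a change at position 5, 0.792% (0.164 to 2.30), lay under a peak. The shares were 6.83% for position 1, 7.71% (5.89 to 9.88) for position 8 and 10.2% for position 11. At the far end of the motif they were 41.1% (36.9 to 45.4) for position 17 and 34.7% (28.1 to 41.7) for position 18. The other core positions, 3, 4, 6 and 7, had shares of 13.5%, 14.9%, 18.5% and 32.3%. Positions 15 and 16, outside the core, had 19.1% and 20.7%. The share also differed with the base that replaced the motif letter. At position 7, T7C sites were bound in 54.1% (44.3 to 63.6) of 111 cases, a share whose interval includes that of exact sites, T7G sites in 27.6% and T7A sites in 13.9% (7.79 to 22.2). Likewise A10G sites were bound in 44.1% (35.6 to 52.9) of 136 cases and A10C sites in 12.0% (5.64 to 21.6) of 75. For C17T the share was 46% of 350 sites, and for C17G it was 1 of 26, 3.85% (0.0973 to 19.6).

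**Figure D2:**
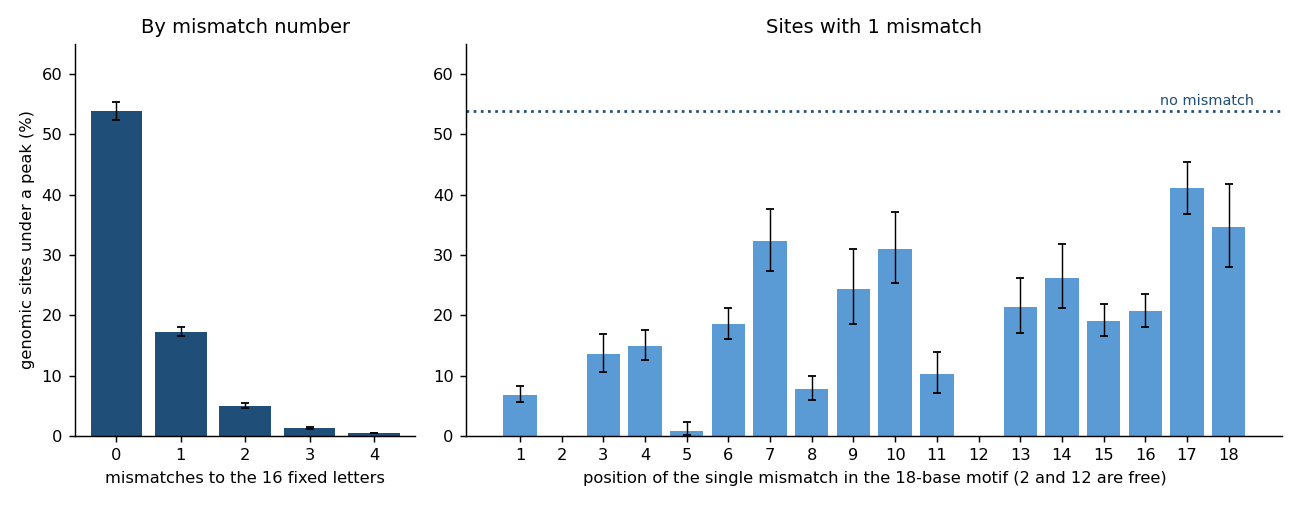
Percent of genomic sites of the long motif on the held-out chromosomes that lie under a ZNF251 peak above 80, with 95% exact intervals. Left, by number of mismatches; right, sites with 1 mismatch by its position, the dotted line giving sites without mismatch (53.9%). Position 5 had the lowest share (0.792%) and position 17 the highest (41.1%).

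The free positions also separated bound from unbound sites. Position 12 was free because no base reached 80% in the peaks searched, and T was the most common base there in the genome, with 3160 of the 4387 exact sites. Exact sites with T (N12T) were bound in 44.4% (42.7 to 46.2) of cases. Those with G (N12G) were bound in 76.1% (73.2 to 78.8) of 937, with A (N12A) in 82.4% of 131 and with C (N12C) in 87.4% (81.2 to 92.1) of 159. The median score of the bound sites was 240 for T, 347 for G, 431 for C and 469 for A. At position 2, nearly all exact sites had C or T, and these were bound in 54.2% (N2C) and 58.3% (N2T) of cases. The rarer N2A and N2G sites were bound in 19.7% (11.5 to 30.5) of 76 and 5.30% (2.16 to 10.6) of 132.

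The 3 letters that the extended core adds lie 8, 5 and 2 bases before the long motif. They were read from peaks without the long motif on the other chromosomes, and the share of exact long-motif sites under a peak rose with each of them. It was 29.4% (23.8 to 35.4) of 252 sites with none of the letters, 43.8% with 1, 62.4% with 2 and 93.2% (87.8 to 96.7) of 147 sites with all 3. Median scores rose from 206 to 660 over the same classes. The G at 2 bases before the motif was present at only 301 exact sites, of which 87.0% (82.7 to 90.6) were bound, against 51.4% of the sites without it. The G at 8 bases before went with a smaller difference, 58.7% (56.7 to 60.6) against 47.6% (45.4 to 49.9). The A at 5 bases before was present at most sites, and those that lacked it were bound in 28.2% (24.5 to 32.1) of 561 cases.

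**Figure D3:**
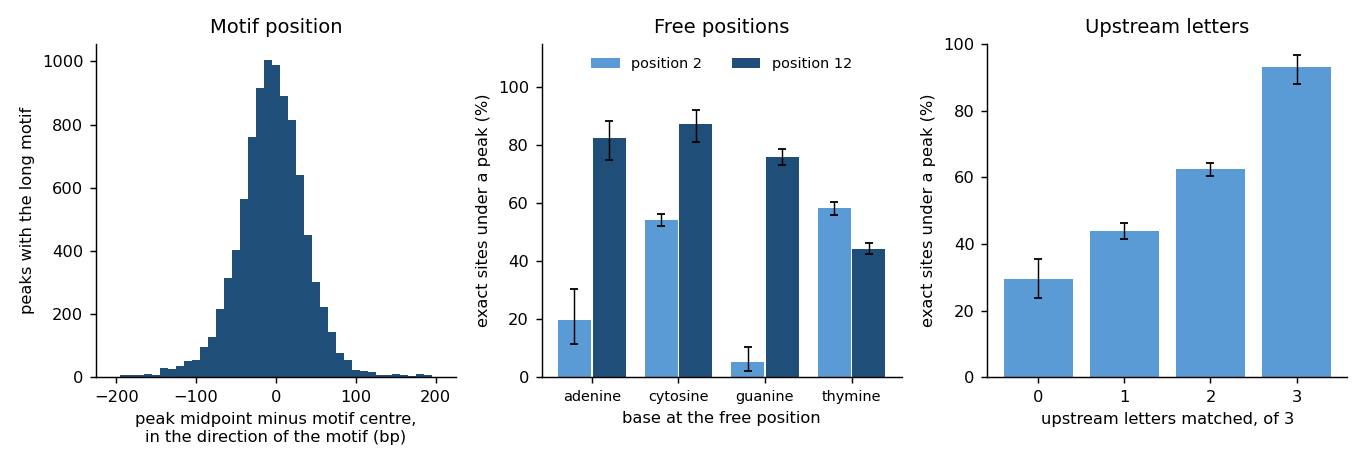
Left, number of peaks with the long motif (all chromosomes) by the distance of the peak midpoint from the motif centre. Middle and right, percent of exact long-motif sites on the held-out chromosomes under a peak above 80, by the base at each free position and by the number of upstream letters matched, with 95% exact intervals. Sites with thymine at position 12 (44.4%) were bound less than those with another base there, and sites with all 3 upstream letters were bound most (93.2%).

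Most exact copies of the long motif lay in a longer repeated sequence, whether bound or not. Over the 110 bases around the motif, exact sites under a peak matched the most common base of the peaks searched at a median of 63.6% of positions, and exact sites without any interval also at 63.6%. An identity of at least 45% was found at 89.5% of the exact sites under a peak and at 88.6% of those without any interval. Sites under a peak with 1 and 2 mismatches matched at medians of 59.1% and 51.8%, and those with 3 at 32.7%. Windows 1000 bp away from exact sites matched at 28.2%, and sites in core-only peaks at 28.2%. The share of exact sites under a peak was between 45% (36.3 to 54.0) and 56.9% (51.4 to 62.3) in 5 classes of this identity, without a steady rise or fall. The difference at position 12 was present within classes of identity: below 55%, 30.5% of sites with T and 76.0% with another base were bound, and from 65% upwards 48.8% and 80.7% were. The name of the repeat was not assigned here.

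Over all chromosomes, the share of exact sites under a peak was 62.0% (58.6 to 65.3) of 832 sites within 2500 bp of a TSS and 55% (53.9 to 56.2) of those farther away. Inside protein-coding genes it was 57.8% for sites on the strand of the gene and 58.2% for sites on the opposite strand. Both bound and unbound exact sites in genes ran along the gene's strand in a minority of cases, 31.8% (29.8 to 34.0) and 32.2% (29.6 to 35). By chromosome, the share ran from 41.2% (34.3 to 48.4) on chromosome 18 to 66.5% (60.5 to 72.2) on chromosome 13. Chromosome 13 also had the most peaks per assembled megabase, 9.72, and chromosome 8 the fewest, 5.65. Chromosome X held 5.08 exact sites per megabase against at most 3.21 on any autosome, with 48.6% (45 to 52.2) of them bound.

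Most ZNF251 peaks were far from gene starts. The median distance from a peak midpoint to the nearest TSS was 10534 bp. By the place of the midpoint, 8951 peaks (42.7%) lay in introns of protein-coding genes, which make up 41.3% of the assembled genome, and 7538 (35.9%) between genes, which make up 38.1%. Untranslated exons held 699 peaks, 3.33% (3.09 to 3.58) against 1.78% of the genome. Coding exons held 298, 1.42% (1.27 to 1.59) against 1.25%.

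A minority was concentrated at TSSs. 4891 peaks, 23.3% (22.7 to 23.9), were at a TSS, and 2471 of them were within 500 bp of one. By midpoint, 9.68% (9.29 to 10.1) of the peaks were within 500 bp of a TSS, where 4.14% of the assembled bases lie, and 22.1% within 2500 bp, where 16.0% lie. Of the peaks within 500 bp, 53.9% (52.0 to 55.9) were CpG-rich, against 0.951% of the peaks not at a TSS. In all, 1598 peaks, 7.62% (7.26 to 7.99), were CpG-rich, 1445 of them at a TSS, while 1.56% of all 300-bp tiles of the genome were CpG-rich.

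The peaks at TSSs differed from the rest in their sequence. The long motif was found in 26.8% (25.1 to 28.7) of held-out peaks at a TSS and in 51.3% (50.2 to 52.3) of those elsewhere. Within 500 bp of a TSS the share was 12.1%, and among CpG-rich peaks it was 12 of 778, 1.54% (0.799 to 2.68), against 49.3% among the others. Of the CpG-rich peaks, 91.4% had none of the 3 patterns. Their median score, 178, was close to the 183 of the other held-out peaks.

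Other KZFPs of the same assay were compared for these shares. ZNF251 had the most peaks of the 15 ChIP-exo libraries, 3.29 times as many as ZNF160 with 6377, and the 14 others had a median of 167. The ZNF251 TSS share was higher than that of 5 libraries and lower than that of 3 among the 14 tested (two-sided Fisher's exact test with Benjamini-Hochberg adjustment over the 14). It exceeded that of ZNF160 (7.56%, adjusted p from Fisher's exact test = 6.04e-197), ZNF724P (9.31%), ZNF578 (16.0%), ZFP28 (16.0%) and ZNF729 (6.98% of 43 peaks). It was below that of ZNF546 (70.8% of 24 peaks), ZNF763 (46% of 224) and ZNF850 (29.1%, adjusted p from Fisher's exact test = 0.00932). For the other 6 libraries the adjusted p-value did not pass 0.05, which does not show equal shares. In CpG-rich peaks, ZNF251 was higher than 5 libraries, among them ZNF160 with 6 of 6377, and lower than 5, among them ZNF763 with 43.3%.

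These directions depended on how many peaks were compared. Among the 100 highest-scoring peaks of each library, or all of them where a library had fewer, 56 ZNF251 peaks were at a TSS and 39 were CpG-rich. These are the top 100 of 20974 peaks for ZNF251, but the whole list for libraries with fewer than 100 peaks. The TSS share was then higher than in 12 of the 14 libraries by Fisher's exact test and lower in none. ZNF850, with 30%, moved to the other side (adjusted p from Fisher's exact test = 4.21e-04), and ZNF763, with 55%, was no longer distinguishable. The CpG-rich share was higher than in 11 libraries and remained lower than in ZNF546 alone. Of these 100 ZNF251 peaks, which scored at least 3007, 22 had the long motif and 61 had none of the patterns. Of the 61, 34 were CpG-rich and 27 were not.

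**Figure D4:**
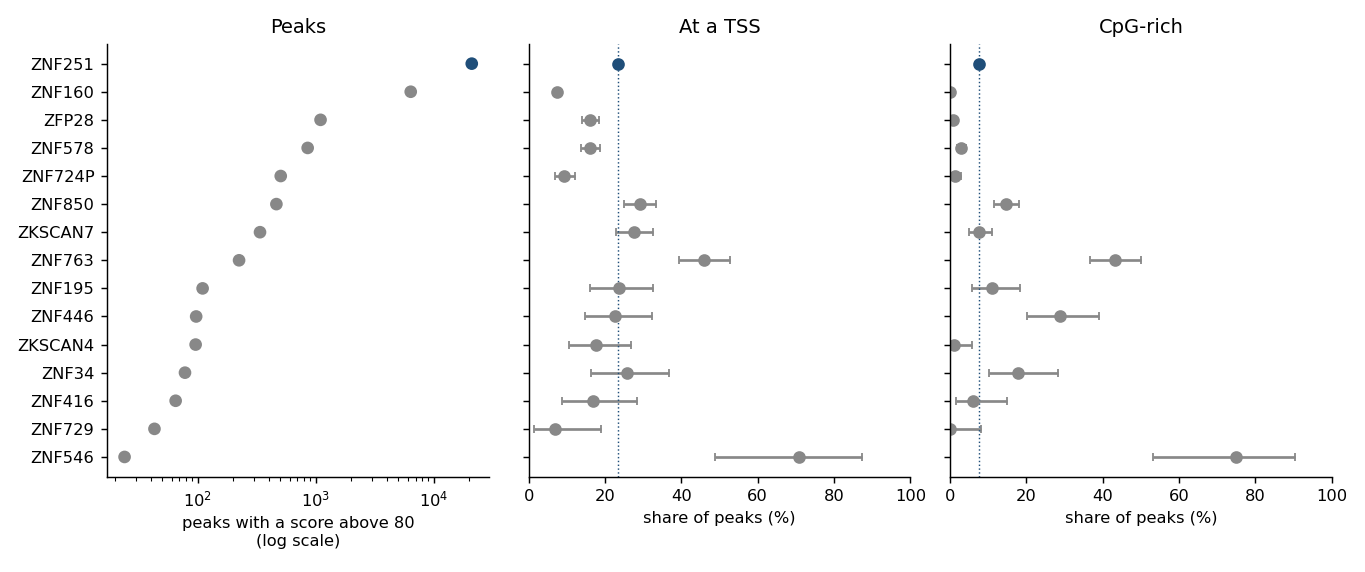
Number of peaks above 80 (left, log scale), percent of them within 2500 bp of a TSS (middle) and percent CpG-rich (right) in the 15 ChIP-exo libraries, with 95% exact intervals. ZNF251 is in blue, with a dotted line at its shares (23.3% and 7.62%), and the other libraries spread to both sides of it.

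Of 20163 annotated protein-coding genes, 3252 (16.1%) had a ZNF251 peak at one of their TSSs, and 1995 (9.89%) had one within 500 bp. Among 18702 lncRNA genes the share was 7.73%. The highest shares among 12 lists of genes were those of replication-dependent histone genes, 25 of 64 (39.1%, 27.1 to 52.1), of the KZFPs transduced in the study, 8 of 21 (38.1%, 18.1 to 61.6), and of KAP1 with its heterochromatin partners, 9 of 25 (36.0%, 18 to 57.5). The share was 156 of 566 (27.6%, 23.9 to 31.4) for zinc finger genes, a list by symbol that takes in the transduced KZFPs. Olfactory receptors had the lowest share, 22 of 399 (5.51%, 3.49 to 8.23), and only 1 of them had a peak within 500 bp. The interval included 16.1% for the other 7 lists: imprinted genes (6 of 20), proteasome subunits (13 of 50), HOX genes (9 of 39), respiratory chain subunits (22 of 103), cytosolic ribosomal proteins (15 of 87), mitochondrial ribosomal proteins (10 of 78) and clustered protocadherins (5 of 53). Genes that lie close together can share a peak, and the 25 histone genes with a peak had 18 distinct ones. These counts are descriptions with no test against the background.

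**Figure D5:**
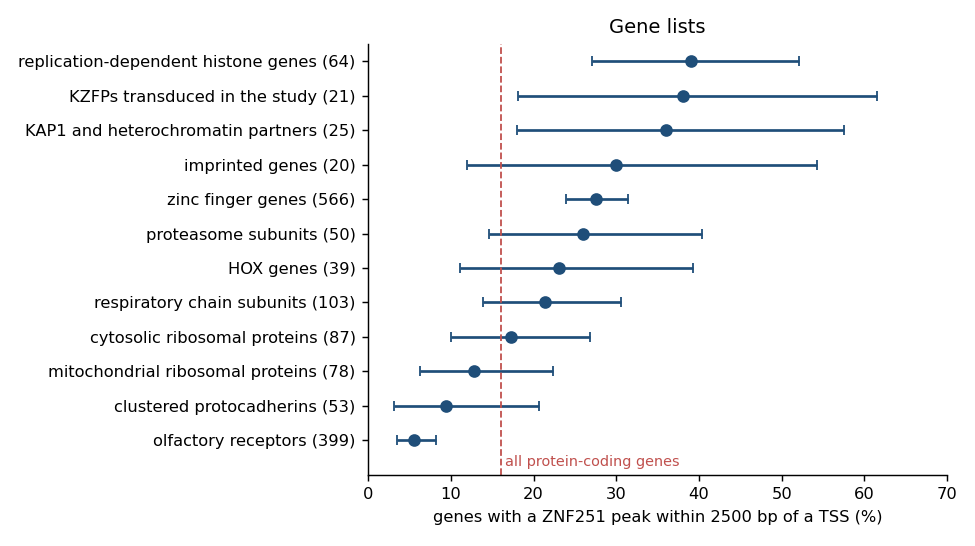
Percent of the genes of each list with a ZNF251 peak above 80 within 2500 bp of a TSS, with 95% exact intervals and the number of genes in brackets. The dashed line is the share over all protein-coding genes (16.1%); histone genes (39.1%) and zinc finger genes (27.6%) lie above it and olfactory receptors (5.51%) below.

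The histone genes carried some of the highest peaks. Those at H4C14 (chr1:149803651-149805319) and H4C15 (chr1:149831824-149833347), which encode histone H4, both scored 3100, were CpG-rich and had their midpoints in a coding exon. The 2 genes are near-identical copies, so that reads from one could have been placed at the other, and the peaks had none of the motif patterns. The median best score of the histone genes with a peak was 411, against 197 over all protein-coding genes with one.

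ZNF524 and ZNF775 led the zinc finger genes with CpG-rich peaks of 3100 and 2828. HOXC8, a developmental homeobox gene, had a CpG-rich peak of 3100 with the core, centred 37 bp from a TSS, and HOXA3 one of 498 without it. SIRT1, a histone deacetylase, had a CpG-rich peak of 737 without a motif. ATF7IP, a partner of the histone methyltransferase SETDB1, had a peak of 653, centred 2541 bp from a TSS, with a long-motif site that carries A4G. Among the KZFPs of the study, ZKSCAN8 led with 590 and ZNF256 followed with 399.

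None of the 31655 intervals covered an exon of ZNF251 on chromosome 8, the part of the gene that the vector also carries. The nearest one, with a score of 94.0, lay 1057 bp upstream of the gene's start. Of the 21 libraries of transduced KZFPs, 1 (ZKSCAN4) had an interval at an exon of its own gene.

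Housekeeping genes carried both kinds of peak. RPL3 and RPS6, ribosomal proteins of the large and small subunit, had peaks of 2070 and 465, the first with the core and the second CpG-rich and without a motif. The RPL3 peak was centred between genes, 2691 bp from a TSS, and the RPS6 peak 3 bp from one. MRPL46 and MRPS11, which share a promoter region and encode proteins of the mitochondrial ribosome, shared a peak of 2401 without a motif. NDUFA10 and NDUFV3, subunits of respiratory complex I, had CpG-rich peaks of 1484 and 1092. PSMD14, the deubiquitinase of the proteasome lid, had a CpG-rich peak of 1112 with the core. PSMD9, a proteasome assembly chaperone, had a peak of 695 that was not CpG-rich. The imprinted neighbours PEG10 and SGCE shared a peak of 699 without a motif.

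Long-motif sites of 4 of the named genes are shown with the motif in capitals. The peaks that hold them were not CpG-rich.
ATF7IP intron, chr12:14563828-14563857, minus strand: aaacatGCTGAGTGAAAGAAGCCAgtcacg
OR4F3, 2474 bp from its start, chr5:180796728-180796757, minus strand: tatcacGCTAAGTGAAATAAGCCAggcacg
OR4F29, 2474 bp from its start, chr1:370099-370128, minus strand: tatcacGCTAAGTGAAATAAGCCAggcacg
PCDHA2, in an intron of PCDHA1, chr5:140173943-140173972, plus strand: cattgtGCTAAGTGAAATAGGCCAgtcaca
The olfactory receptor genes OR4F3 and OR4F29 had the 2 highest peaks of their list, 1679 and 1508. Their windows are identical, so that the reads behind the 2 peaks may not be separable. PCDHA2, a clustered protocadherin, had a peak of 349 with a site that carries A14G, and PCDHB2, the other named gene of that list, had a peak of 186 without a motif.

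The 10 highest-scoring peaks scored from 3100 to 3233 and overlapped no peak of any other library. Those of 3100, at FOXD3 and ALG6, were taken in genome order from the 86 peaks with that score. Of the 10, 6 were at a TSS, 3 were CpG-rich and 3 had the long motif. The highest lay between genes at chr6:15242865-15243863, 1867 bp from the start of JARID2-DT and 2936 bp from that of JARID2, which encodes a partner of Polycomb repressive complex 2. The second (3219) lay 561 bp from the start of HEY2, a transcriptional repressor of the Notch pathway, at chr6:126067788-126068710. Neither had a motif pattern. FGGY (3194), a carbohydrate kinase, and FKBP7 (3128), a prolyl isomerase, had CpG-rich peaks within 37 and 248 bp of a TSS, and C1orf112 (3180) one that was not CpG-rich within 17 bp. Another CpG-rich peak (3100) lay in the coding exon of FOXD3, a developmental forkhead factor. The peak at chr1:113812471-113813092 (3152) was 71335 bp from any TSS and had no motif.

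The long-motif sites among these 10 were that of ALG6, shown above, and these 2, each with 3 mismatches.
OS9 intron, chr12:58092465-58092494, plus strand: aggtgcGCTAAGTGCAAAAGGCCTggagac
Between genes, 12074 bp from MYSM1, chr1:59177821-59177850, plus strand: cattgtGCTAAGTGAAACAGCACAatcaca
The OS9 site (peak score 3201) carries A9C, A14G and A18T and the MYSM1 site (3185) carries A14G, G15C and C16A, and both keep the core intact. The bases around the OS9 site matched those of the bound sites at 30%, near the level of unrelated windows, and those around the MYSM1 site at 71.8%.

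Few ZNF251 peaks were shared with other KZFPs. 197 peaks, 0.939% (0.813 to 1.08), overlapped a peak above 80 of any other KZFP by at least 1 bp, 155 of them with a single library, and 1 overlapped a peak of the untransduced control. Each other list holds fewer peaks than that of ZNF251, which limits this share. The overlap expected by chance was not calculated. The shared peaks had the long motif less than the rest, 9 of 90 on the held-out chromosomes (10.0%, 4.68 to 18.1), and 32% of them lay within 1 Mb of a large assembly gap against 9.82% of all ZNF251 peaks. The part of such regions in the overlap was not tested. As a share of the other list, the overlap was 44.2% of the 43 ZNF729 peaks, 37.5% of the 24 ZNF546 peaks and 16.9% of the 65 ZNF416 peaks. It was 6.32% of the 854 ZNF578 peaks, 1.55% of the 1098 ZFP28 peaks and 0.894% of the 6377 ZNF160 peaks. Of the 20 ZNF251 peaks shared with ZNF729, 19 were near such a gap and none had a motif pattern. Of the 20 shared with ZNF746, a ChIP-seq library, 18 were CpG-rich.

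The long motif was rare in all other lists, at most 2.57% (1.38 to 4.36) in ZNF724P among lists of over 20 peaks, besides 1 of 8 peaks in ZNF597. The core, with its position 2 free, was however found in 22.4% (19.6 to 25.3) of 854 ZNF578 peaks. Windows 1000 bp away held it in 1.05% of cases, and the extended core was found in 21.1% of the peaks. Only 2 of the 191 ZNF578 peaks with the core overlapped a ZNF251 peak above 80, 1.05% (0.127 to 3.73), and no further one overlapped an interval scored 50 to 80. Of the 659 ZNF578 peaks with neither the core nor the extended core, 52 overlapped a ZNF251 peak above 80, 7.89% (5.95 to 10.2). The letters around the core differed in part between the proteins. At 8 and 2 bases before the core, G was the most common base in both. It was found there in 94.2% and 95.8% of the ZNF578 peaks with the core. In the core-only ZNF251 peaks it was found in 57.3% and 65.1%. Other positions differed. Of the ZNF578 peaks with the core, 94.8% had A at position 2, where the word found in the ZNF251 peaks has C. Exact long-motif sites with A there were bound by ZNF251 in 19.7% of cases. At 5 bases before the core, 96.3% of these ZNF578 peaks had G, where the ZNF251 core-only peaks had A in 71.1%. The extended core also has A there, and its 1 allowed mismatch admits the G. In the core-only ZNF251 peaks position 2 was C in 51.4%. In the ZNF578 peaks with the core, the 10 bases on each side of it each had 1 base in at least 79.1% of peaks. In the core-only ZNF251 peaks the most common base reached at most 71.1% at any of these positions. Those peaks lack the long motif by definition, which limits the letters after the core. In the 7040 ZNF251 peaks with the long motif and the core, the most common base ranged from 50.7% to 97.5% over the same positions.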

How the data were processed

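HEK293T cells expressing 1 HA-tagged KZFP each were profiled by ChIP-exo or ChIP-seq, with 1 library per KZFP. The authors aligned reads to hg19 (GRCh37) with Bowtie2 and called peaks per library with MACS against input. The submitters' processing notes name Bowtie2 2.2.1 and MACS 1.4, while the study's methods name a later version of Bowtie2. Per the methods, duplicate reads were kept in ChIP-exo and default settings used in ChIP-seq. The authors deposited each list with a score per peak, which is −10 times the log10 of the p-value. A score of exactly 3100 is shared by 86 ZNF251 peaks and cannot rank them. The deposited lists begin at 50, and peaks above 80 were kept, the threshold of the study's methods. The control was input sampled from all libraries for ChIP-exo and a matched input library for ChIP-seq. These choices can change which intervals are called. ChIP-seq reads were filtered on mapping quality by the authors. No such filter is named for the ChIP-exo reads in the sources used here, which bears on peaks in repeats. The lists hold no read counts. The study's methods give only a minimum depth for each assay, and the depth of each library is unknown.

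Peaks were annotated with GENCODE v44 lifted to GRCh37. CpG content and motifs were read from the GRCh37 sequence with pysam 0.24.0 under Python 3.11.15. The most enriched word of 8 bases in the central 200 bp of 2000 peaks, against windows 1000 bp away, was extended to letters present in at least 80% of aligned peaks (60% for the extended core). Shares carry exact 95% intervals, and libraries with at least 20 peaks were compared by two-sided Fisher's exact test with Benjamini-Hochberg adjustment (scipy 1.17.1). Both steps were tested on simulated data. The named peaks were the 10 highest-scoring, the 10 highest that overlap no other library (the same 10), the 2 leading genes of each list, any interval at an exon of ZNF251 and the peaks next to the threshold; the sites by base at position 12 and the core-only sites were added after their values were seen. The members and gene lists were chosen with earlier results of these data known, and the motif thresholds after seeing the peaks. Some sites are not reported here.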

Additional observations from a re-analysis of the deposited data

How the results depend on the processing

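Of 30 alternative settings, 13 kept the value within its interval, or a count within 1.5 times. The number of peaks was 31655 over all deposited intervals, 10681 at scores of 50 to 80 and 12573 above 150. The TSS share was 22.1% both at scores of 50 to 80 and by midpoint, 11.8% in the 500-bp window and 12.7% with protein-coding transcripts alone. The CpG-rich share was 8.46% at scores of 50 to 80. The share overlapping another KZFP was 1.78% with all intervals of the other libraries. Genes with a peak at a TSS numbered 2055 above 150 and 1995 in the 500-bp window. The share with the long motif was 37.5% over all intervals, 21.1% at 50 to 80, 54.4% above 150 and 44.1% within 100 bp of the midpoint, and, in settings chosen after seeing the data, 22.2% without mismatch and 42.3% with at most 2.

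The number of ChIP-exo libraries past an adjusted p of 0.05 by Fisher's exact test stayed within 1.5 times, but its split did not. For the TSS share it was 5 libraries below ZNF251 and 3 above, 10 and 2 over all intervals, and 12 and 0 in the 100 highest peaks. For the CpG-rich share it was 5 and 5, then 9 and 4, and 11 and 1. No paired analysis was possible because each KZFP had 1 library. For the same reason no replicate could be left out.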
